A study of Mus musculus with 9 samples.

Results

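Rsad2, Cmpk2, Bst2, Ifi44, Zbp1, Isg15 and Usp18 are interferon effector genes, chosen because earlier results of these data showed open chromatin peaks at some of them in control dendritic cells and not in cells with a Pcgf6 vector. They are 7 of 21887 protein-coding genes in the RefSeq table. Their peaks were taken from the gene span and 10 kb on each side. Peaks of the 4 deposited lists that overlapped by at least 1 bp were joined into regions, which gave 60 regions near the 7 genes, of 142985 regions near all protein-coding genes and 194768 in all. Because the genes were chosen from these lists, the presence and absence of their peaks is a description and no test was run on it.

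ATAC-seq, which uses a transposase to cut and tag accessible DNA, was run on dendritic cells grown from bone marrow of C57Bl/6 mice for 9 days in 20 ng/mL GM-CSF, a cytokine that drives marrow cells to this fate. On day 2 the cultures received a retrovirus, and cells positive for both its human CD8 reporter and the dendritic cell marker CD11c were sorted. The groups were OE, which overexpresses Pcgf6, with its control vector mi8, and HP109, a knockdown vector with a hairpin RNA against Pcgf6, with its control vector LMP8. Each vector had 2 libraries, a further library served as input for all, and each vector had 1 deposited peak list for its 2 libraries, so no value below has a spread between replicates. Pcgf6 defines PRC1.6, a repressive Polycomb complex, and the study raised or lowered it.

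Type I interferons bind the receptor made of Ifnar1 and Ifnar2, and a complex that contains Irf9 then binds GAAA repeats near the start of target genes. The products block viruses at many steps. Rsad2 encodes viperin, which makes a chain-terminating nucleotide from CTP, and Cmpk2, its neighbour, encodes a nucleotide kinase of the mitochondrion. Bst2 encodes tetherin, which holds budding virus on the cell surface and is also a surface marker of plasmacytoid dendritic cells. Ifi44 encodes an interferon-induced antiviral protein. Zbp1 encodes a sensor of Z-form nucleic acid that can start cell death. Isg15 encodes a ubiquitin-like modifier, and Usp18 the protease that removes it and that also dampens signalling at the interferon receptor.

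RefSeq promoter sequences (GRCm38.p6, which mm10 is built on) matched 5 of the 7 genes, from 250 bases before to 50 after the start. Those of Ifi44 (chr3:151749861-151750160, minus strand), Isg15 (chr4:156200769-156201068, minus strand), Rsad2 (chr12:26456403-26456702, minus strand) and Bst2 (chr8:71537423-71537722, minus strand) are shown 5′ to 3′, because the Ifi44 start had a peak in the control lists alone and the other starts had one in all 4 lists. Capitals mark each match, on either strand, of a GAAA repeat (GAAA, any 2 or any 3 bases, GAAA).
Ifi44: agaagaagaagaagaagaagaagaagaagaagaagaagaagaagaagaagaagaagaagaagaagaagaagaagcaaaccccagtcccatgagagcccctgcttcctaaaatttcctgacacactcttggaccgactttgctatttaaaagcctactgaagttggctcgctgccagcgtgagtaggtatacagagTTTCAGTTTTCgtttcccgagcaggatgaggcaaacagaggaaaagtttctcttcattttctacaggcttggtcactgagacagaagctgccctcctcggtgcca
Isg15: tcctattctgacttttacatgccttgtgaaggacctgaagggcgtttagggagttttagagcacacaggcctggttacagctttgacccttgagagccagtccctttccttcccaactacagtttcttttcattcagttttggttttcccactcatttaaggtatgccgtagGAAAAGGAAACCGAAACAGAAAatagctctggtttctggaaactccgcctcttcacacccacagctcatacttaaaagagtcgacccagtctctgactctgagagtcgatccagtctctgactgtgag
Rsad2: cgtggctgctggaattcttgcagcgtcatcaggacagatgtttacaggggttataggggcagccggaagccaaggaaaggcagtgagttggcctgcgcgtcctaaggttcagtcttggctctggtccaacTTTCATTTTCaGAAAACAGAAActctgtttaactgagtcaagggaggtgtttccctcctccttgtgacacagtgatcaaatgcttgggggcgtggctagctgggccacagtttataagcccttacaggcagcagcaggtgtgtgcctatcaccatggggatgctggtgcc
Bst2: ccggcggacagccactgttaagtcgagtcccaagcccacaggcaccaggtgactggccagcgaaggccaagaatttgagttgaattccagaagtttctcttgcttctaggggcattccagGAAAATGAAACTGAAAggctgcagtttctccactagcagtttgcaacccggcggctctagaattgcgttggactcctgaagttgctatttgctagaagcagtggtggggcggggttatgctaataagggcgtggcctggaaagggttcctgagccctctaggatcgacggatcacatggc

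A GAAA repeat of either spacing lay in 4 of these 5 promoters, and 6.09% of 27025 promoters in the table held one. The repeat with 2 bases between was in 3.49% of all promoters and that with 3 bases in 2.80%. In Isg15 there were 3 repeats with 2 bases between, which overlap each other and run from 78 to 57 bases before the start. In Bst2, 2 overlapping repeats with 2 bases between lay from 130 to 115 bases before the start. In Rsad2 the repeat with 2 bases between was on the opposite strand, 120 to 111 bases before the start. It did not overlap that with 3 (109 to 99). In Ifi44 the single match was a repeat with 3 bases between, on the opposite strand, 55 to 45 bases before the start. A peak covered the matches of Isg15, Bst2 and Rsad2 in all 4 lists, while the Ifi44 match was covered in mi8 and LMP8 alone. The Cmpk2 window held no match of either spacing. A match is a run of letters and no evidence that a factor bound there.

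The strength of a peak is given by the authors' −log10 q and fold over the input background, and by the pileup, the number of reads stacked at the summit, which was recovered as a whole number from the fold and −log10 p. The lists held 111510 peaks for OE, 170976 for mi8, 170103 for HP109 and 140735 for LMP8, with a median −log10 q of 14.6, 14.4, 14.1 and 11.4 in that order. The step between background values, which scales with read depth, was 0.718 reads for OE and 0.720 for mi8, against 0.521 for HP109 and 0.526 for LMP8. By this measure alone the lists of a pair had nearly the same depth, and pileups of OE and mi8 stand on a scale 1.37 times that of LMP8; library complexity and the share of reads in peaks are not known. At the lowest background the weakest called peak had a pileup of 8 in OE, 7 in mi8 and 6 in both HP109 and LMP8. At Pcgf6 itself, within 1 kb of the span, OE had 2 regions and the other lists 3 each, which checks neither vector because a cDNA or a hairpin need not change the gene's own chromatin. All 8 dendritic cell markers examined had a peak in every list, with 66 regions in OE, 100 in mi8, 105 in HP109 and 86 in LMP8. The 5 macrophage markers also had one in every list, with 32 regions in OE, 60 in mi8, 57 in HP109 and 47 in LMP8. Of the 4 B cell markers, 2 had one in OE and 4 in each other list, with 3 regions in OE, 16 in mi8, 14 in HP109 and 11 in LMP8. The 4 plasmacytoid markers held 78 regions in OE, 124 in mi8, 117 in HP109 and 100 in LMP8, and the defining marker Siglech had 2 in each list but LMP8, which had 0. The 4 stroma markers had a peak in every list, with 13 regions in OE, 32 in mi8, 30 in HP109 and 22 in LMP8. Of the 6 granulocyte markers, 2 had one in OE, 4 in mi8, 5 in HP109 and 3 in LMP8, and S100a8 and Mpo had one in every list. Of the 4 erythroid markers, 2 had one in OE, 4 in mi8, 3 in HP109 and 3 in LMP8, and of the 4 T and NK cell markers 0 had one in OE, 1 in mi8, 2 in HP109 and 0 in LMP8. Among all these markers, Ly6g, Cd8b1 and Ncr1 had no peak in any list. The part of other cells in the results was not tested, and in bulk libraries fewer cells with an open site and a less open site in each cell cannot be told apart.

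Near the 7 genes OE had 28 regions, mi8 56, HP109 37 and LMP8 48. All 28 OE regions were also in mi8, where 4.56% of OE regions near all genes were absent from mi8. In the other direction, 28 of the 56 mi8 regions were absent from OE, beside 39.3% near all genes. For the knockdown, 3 of 37 HP109 regions (8.11%) were absent from LMP8, beside 24.1% near all genes, and 14 of 48 LMP8 regions (29.2%) were absent from HP109, beside 7.64%. Both controls and neither Pcgf6 vector held 11 of the 60 regions (18.3%), beside 2.42% near all genes, and 5 of the 11 were at Ifi44. Without Ifi44, 6 regions were in both controls alone, and 9 were in LMP8 and not HP109. A further 27 regions were in all 4 lists (45.0%, beside 47.8% near all genes), 9 in mi8 alone (beside 9.55%), 7 in every list but OE (11.7%, beside 13.7%) and 3 in LMP8 alone (beside 2.36%). A Pcgf6 vector and neither control held 1 region, beside 10.8%. Since these lists chose the genes, nothing is read from the distance to the background. A region absent from a list had no called peak there, which does not mean closed DNA. At a −log10 q of at least 10 in every list, 4 regions were in HP109 and not LMP8 and 4 in LMP8 and not HP109. No share near all genes is given for that threshold, so nothing is read from the equal counts. With equal numbers of peaks in each list, 16 of 44 mi8 regions (36.4%) were absent from OE, beside 18.4% near all genes, and 12 of 37 LMP8 regions (32.4%) were absent from HP109, beside 12.6%.

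**Figure D1:**
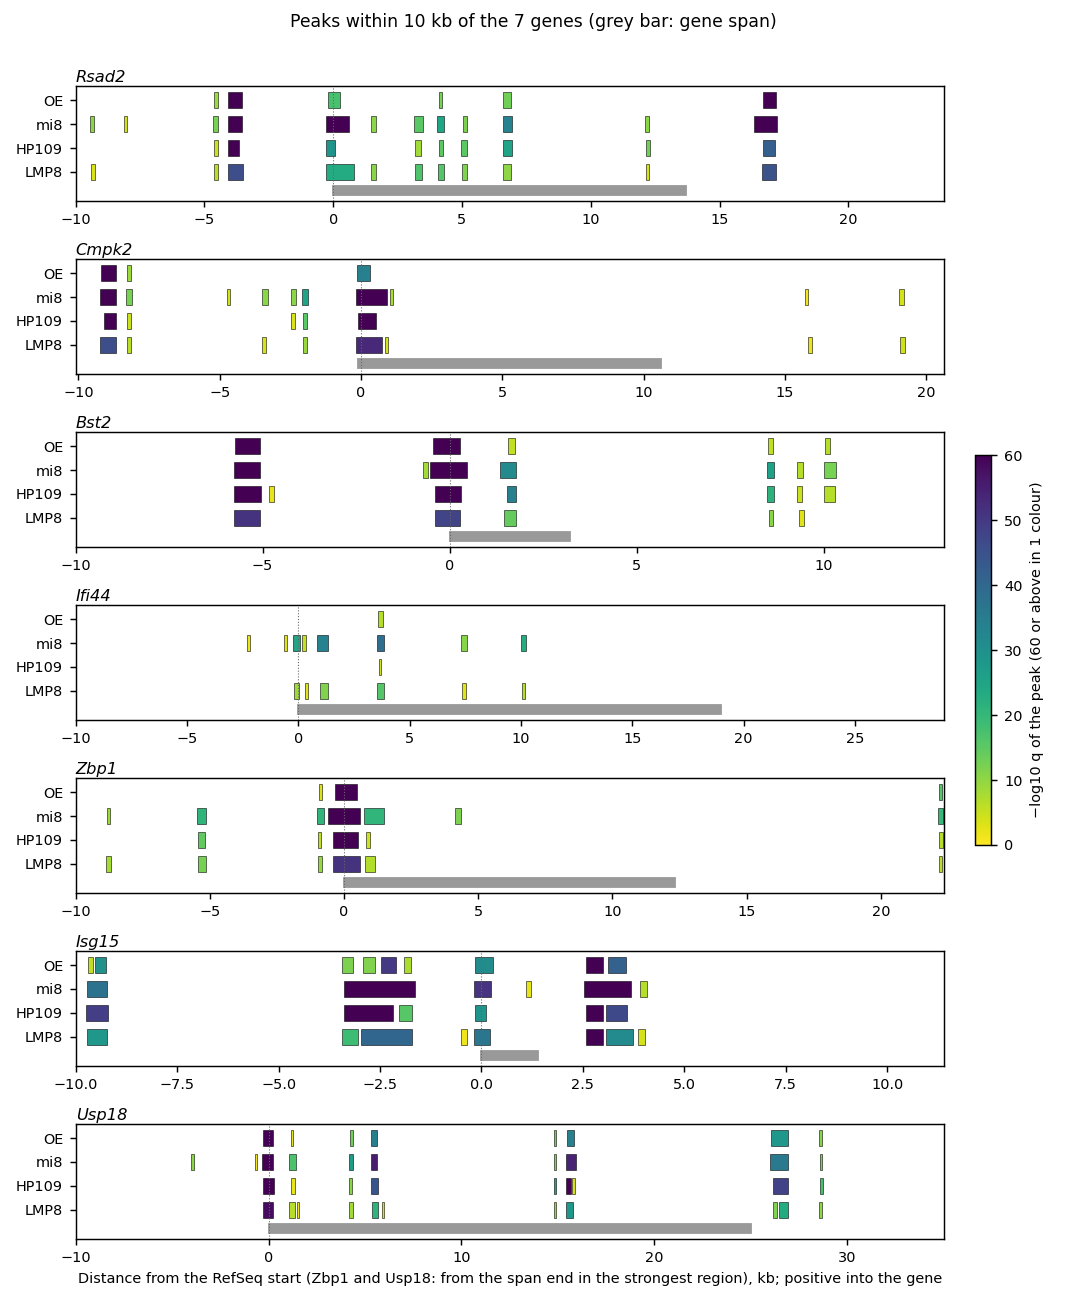
Peaks of the OE, mi8, HP109 and LMP8 lists (rows) around each gene, by distance in kb from the RefSeq start (from a span end for Zbp1 and Usp18), coloured by −log10 q; the grey bar is the gene span. The Ifi44 panel holds 1 region in OE and in HP109, 8 in mi8 and 6 in LMP8, while the strong peaks at distance 0 in the other panels are in all 4 lists.

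Ifi44 (chr3:151730922-151749910, minus strand) had the fewest regions with a Pcgf6 vector. OE held 1 region, against 8 in mi8, and HP109 held 1, against 6 in LMP8. Over the start (chr3:151749845-151750134) there was no peak in OE or HP109. The mi8 peak there had a pileup of 31, a fold of 10.9 and a −log10 q of 24.6, with its summit 31 bp before the start. The LMP8 peak had a pileup of 15, a fold of 6.21 and a −log10 q of 8.62, with its summit 84 bp before the start. On a like background (within 7%) the weakest called peak of the whole list had a pileup of 8 in OE and of 6 in HP109. The part of detection in these absences was not tested.

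Within the Ifi44 gene the strongest region that both controls held alone lay 1.10 kb into the gene (chr3:151748566-151749052), with a −log10 q of 33.3 and a pileup of 38 in mi8, and a −log10 q of 11.4 and a pileup of 17 in LMP8. A further one lay 10.1 kb into the gene (chr3:151739675-151739922), with a −log10 q of 23.3 in mi8 and 6.71 in LMP8. That at 7.45 kb (chr3:151742336-151742592) had 10.97 in mi8 and 2.96 in LMP8, and that at chr3:151749495-151749727, 0.299 kb into the gene, had 5.23 in mi8 and 2.82 in LMP8. The last pair of regions, before the start, was in mi8 alone at a −log10 q of 2.64 and 2.03, near the lowest value in that list (1.34). The 5 regions of both controls alone had a pileup of 8 to 17 in LMP8 and of 13 to 38 in mi8, whose depth scale is 1.37 times that of LMP8.

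The only Ifi44 region of all 4 lists lay 3.68 kb into the gene (chr3:151746071-151746396). Its pileup was 15 in OE (exact Poisson 95% interval 8.40 to 24.7), against 42 in mi8 (30.3 to 56.8), and 9 in HP109 (4.12 to 17.1), against 22 in LMP8 (13.8 to 33.3). The OE and mi8 intervals did not overlap, while those of HP109 and LMP8 did. These intervals cover counting error alone, and the genes were chosen from these lists. Overlap or its lack, here and below, is a description and no test, with no share near all genes beside it. Scaled by the background step, the log2 pileup ratio was −1.48 for OE over mi8 and −1.28 for HP109 over LMP8. The nearest region beyond the window, 12.3 kb before the start and in the span of the related gene Ifi44l, was in all lists with a −log10 q of 4.35 in OE against 28.3 in mi8, and 7.62 in HP109 against 17.0 in LMP8.

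**Figure D2:**
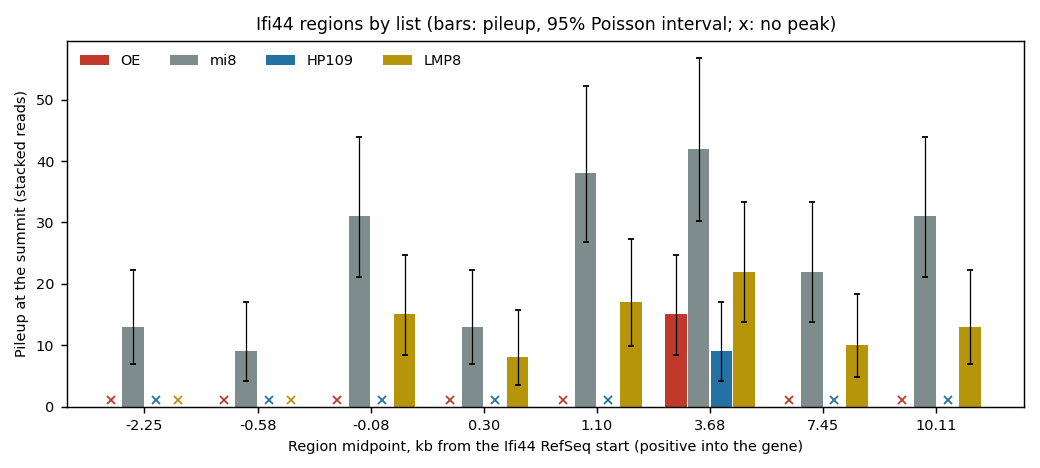
Summit pileup (stacked reads, y axis) with exact Poisson 95% intervals at the 8 Ifi44 regions (x axis) in OE, mi8, HP109 and LMP8, as bars; a cross marks a list with no called peak. The region 3.68 kb into the gene is the only one with a bar for every list, at 15 in OE against 42 in mi8 and 9 in HP109 against 22 in LMP8.

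Rsad2 (chr12:26442743-26456452, minus strand) and Cmpk2 (chr12:26469117-26479837, plus strand) lie head to head, and their windows share 4 regions. At Rsad2, OE held 6 of 12 regions, against 12 in mi8, and HP109 held 9, against 11 in LMP8. At Cmpk2, OE held 3 of 10 regions, against 10 in mi8, and HP109 held 5, against 7 in LMP8. Their start peaks were in all lists, and were lower in OE.

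The Rsad2 start peak had a −log10 q of 17.5 in OE against 71.4 in mi8, and 28.7 in HP109 against 23.4 in LMP8. Its pileup was 26 in OE (16.98 to 38.1), against 67 in mi8 (51.9 to 85.1), and 32 in HP109 against 31 in LMP8. The intervals of OE and mi8, which cover counting error alone, did not overlap. The log2 ratio was −1.36 for OE over mi8 and 0.06 for HP109 over LMP8, beside medians of −0.33 and 0.49 near all genes. The summit lay 78 bp before the start in OE against 74 bp in mi8, and 78 bp in HP109 against 25 bp in LMP8. At the Cmpk2 start the pileup was 40 in OE (28.6 to 54.5), against 77 in mi8 (60.8 to 96.2), and 62 in HP109 against 50 in LMP8, with log2 ratios of −0.94 and 0.32. The intervals of OE and mi8 at the Cmpk2 start did not overlap either.

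Inside Rsad2, a region 1.55 kb from the start (chr12:26454795-26455003) was in both controls alone, at a −log10 q of 10.5 and a pileup of 19 in mi8, and 10.6 and 17 in LMP8. The other region of both controls alone (chr12:26465721-26465905) lay between the genes, 3.40 kb before the Cmpk2 start, at 10.3 in mi8 and 3.63 in LMP8. Downstream of Cmpk2 both controls alone held weaker regions, at chr12:26484924-26485186 (1.39 in mi8 and 2.07 in LMP8) and chr12:26488248-26488474 (3.83 and 4.45).

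At 4 regions across Rsad2 and Cmpk2 OE alone lacked a peak, as many as both controls alone held. The region 1.97 kb before the Cmpk2 start (chr12:26467138-26467347) had a −log10 q of 24.9 in mi8, 15.3 in HP109 and 9.25 in LMP8, and no OE peak. In the body of Rsad2, the regions 3.32, 5.08 and 12.2 kb from the start were likewise in every list but OE, at 15.6, 11.9 and 10.3 in mi8. HP109 had 8.22, 15.2 and 12.98 at these regions, and LMP8 had 16.7, 11.7 and 3.63. The region of both windows at chr12:26459968-26460541, between the genes, was strong in all lists, with a −log10 q of 64.7 in OE against 75.4 in mi8, and 66.2 in HP109 against 45.9 in LMP8. That region and one past the far end of Rsad2, 16.8 kb from its start, were the strongest of the Rsad2 window in each list, and no list lacked them.

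Bst2 (chr8:71534255-71537472, minus strand) differed from Ifi44 in that every region of LMP8 was also in HP109. OE held 5 of 8 regions, against 7 in mi8, and HP109 held 7, against 5 in LMP8. The start peak had a pileup of 59 in OE (44.9 to 76.1), against 91 in mi8 (73.3 to 111.7), and 69 in HP109 (53.7 to 87.3), against 45 in LMP8 (32.8 to 60.2). The log2 ratio was −0.62 for OE over mi8 and 0.63 for HP109 over LMP8, with intervals that overlapped in both pairs. The values with the 2 Pcgf6 vectors thus lay on opposite sides of their controls. So did the median log2 ratios near all genes, at −0.33 for OE over mi8 and 0.49 for HP109 over LMP8. A region 1.57 kb into the gene (chr8:71535690-71536112) had a pileup of 14 in OE (7.65 to 23.5), against 39 in mi8 (27.7 to 53.3), and 36 in HP109 (25.2 to 49.8), against 21 in LMP8 (up to 32.1). Here OE and mi8 did not overlap, and the log2 ratios were −1.48 and 0.79. The 2 HP109 regions with no LMP8 peak (chr8:71527132-71527470 and chr8:71542200-71542295) had a −log10 q of 6.64 and 2.16, and OE held the first of them too, at 6.71 against 12.3 in mi8. The window also reaches Mvb12a, whose region (chr8:71542507-71543242) had a pileup of 74 in OE against 76 in mi8, and 72 in HP109 against 53 in LMP8 (log2 ratios −0.04 and 0.45).

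Zbp1 (chr2:173206612-173218959) had its strongest region over the upper end of the span (chr2:173218367-173219574), with a pileup of 78 in OE against 71 in mi8, and 69 in HP109 against 50 in LMP8. OE held 3 of the 7 regions, against 7 in mi8, and HP109 held 5, against 6 in LMP8. Beside the strong region, that at chr2:173219724-173219961 was in all lists with a pileup of 11 in OE (5.49 to 19.7) against 29 in mi8 (19.4 to 41.7), and 12 in HP109 against 16 in LMP8. On its other side, chr2:173217457-173218219 had no OE peak and a −log10 q of 20.7 in mi8, with 4.58 in HP109 against 6.90 in LMP8. The intervals of OE and mi8 overlapped narrowly at the first of these flanking regions (log2 ratio −1.40), while the ratio over the span end was 0.14. Further regions with no OE peak were chr2:173224104-173224424 (21.1 in mi8, and 14.7 in HP109 against 12.6 in LMP8) and chr2:173214594-173214843 (11.9 in mi8 and absent from the other lists). Both controls alone held chr2:173227639-173227844, in the span of the neighbour Pmepa1, at 8.84 in mi8 and 8.00 in LMP8.

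Isg15 (chr4:156199424-156200818, minus strand) and Usp18 (chr6:121245906-121270917), the modifier and its protease, kept most regions in all lists. At Isg15, OE held 4 of 7 regions, against 6 in mi8, and HP109 held 4, against 6 in LMP8. Of the regions of all lists, only that over the start lay in the Isg15 span. The others lay in the spans of Agrn, Gm46878, Perm1 or AW011738. Among the 4 genes with a start peak in every list, Isg15 was the only one with a lower start pileup in both Pcgf6 vectors, at 45 in OE (32.8 to 60.2) against 66 in mi8 (51.04 to 83.97), and 38 in HP109 (26.9 to 52.2) against 45 in LMP8 (32.8 to 60.2). The intervals overlapped in both pairs, and the log2 ratios were −0.55 and −0.23. The single Isg15 region of both controls alone (chr4:156196737-156196960) was weak, at a −log10 q of 6.76 in mi8 and 3.79 in LMP8, and lay in the spans of Agrn and Gm46878.

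At Usp18, OE held 8 of 12 regions, against 10 in mi8, and HP109 held 8, against 10 in LMP8, and the 8 were the same regions. No region was in both controls alone. The peak over the lower end of the span (chr6:121245565-121246189) had a pileup of 71 in OE against 80 in mi8, and 83 in HP109 against 52 in LMP8. The region 1.25 kb further into the span (chr6:121246970-121247334) was weak with both Pcgf6 vectors, with a pileup of 15 in OE (8.40 to 24.7) against 31 in mi8 (from 21.1), and 11 in HP109 (5.49 to 19.7) against 16 in LMP8 (9.15 to 26.0). Its log2 ratios were −1.05 and −0.53, and the intervals overlapped in both pairs.

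Weak peaks are missed more often than strong ones, so absence was set beside strength. Of the mi8 regions near the 7 genes, all 7 with a −log10 q under 5 and all 6 from 5 to 10 were absent from OE, beside 86.7% and 71.2% near all genes. From 10 to 20, 9 of 15 were absent (beside 38.1%), from 20 to 40, 6 of 15 (beside 9.06%), and at 40 or above, 0 of 13 (beside 0.329%). Of the 6 from 20 to 40, Ifi44 held 3, Zbp1 2 and Cmpk2 1. Of the LMP8 regions, 9 of 11 under 5 were absent from HP109 (beside 29.6%), 3 of 11 from 5 to 10 (beside 8.18%) and 2 of 11 from 10 to 20 (beside 0.395%), and the 15 stronger ones were all in HP109. The 2 from 10 to 20 were the Ifi44 region 1.10 kb into the gene and the Rsad2 region 1.55 kb from its start.

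**Figure D3:**
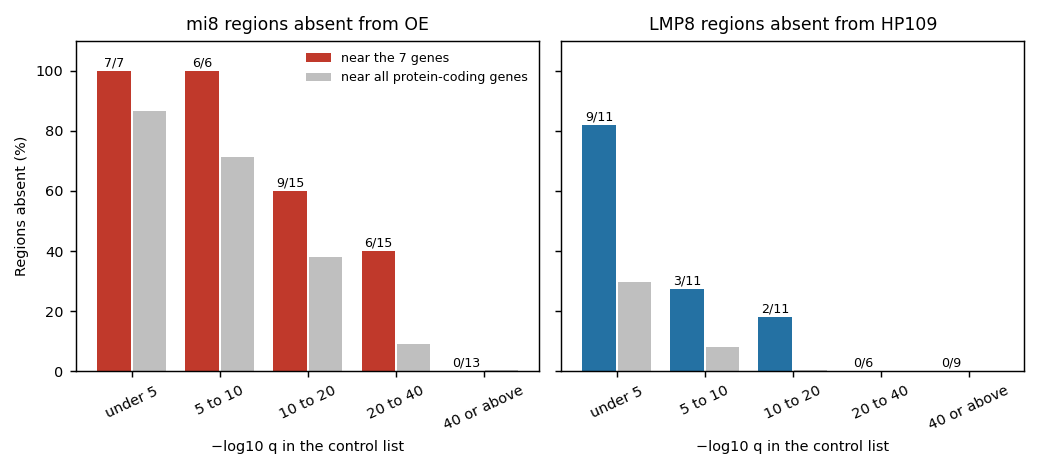
Share of control regions (percent, y axis) absent from the Pcgf6 vector's list by control −log10 q (x axis), for the 7 genes and for all protein-coding genes, with OE against mi8 and HP109 against LMP8. At a −log10 q of 20 to 40, 6 of 15 mi8 regions near the 7 genes are absent from OE, beside 9.06% near all genes.

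Where both lists of a pair held a region, the pileups could be compared after scaling by the background step, a comparison chosen after the data were seen. For OE over mi8, 25 of 28 shared regions near the 7 genes were below 0 on the log2 scale, beside 77.3% of 73695 near all genes, with a median of −0.43 beside −0.33. A log2 ratio of −1 or lower was found in 6 of the 28, beside 9.4%: 2 at Bst2 and 1 each at the Rsad2 start, Zbp1, Ifi44 and Usp18. For HP109 over LMP8, 9 of 34 were below 0, beside 10.8% of 90395, with a median of 0.44 beside 0.49. A log2 ratio of −1 or lower was found in 1 of the 34, the Ifi44 region 3.68 kb into the gene, beside 0.042%. These 9 regions below 0 were 4 at Rsad2, of which 1 is shared with Cmpk2, 2 at Zbp1 and 1 each at Ifi44, Isg15 and Usp18. HP109 was therefore above LMP8 at most of the shared regions, as it was near all genes, and OE below mi8 at most of them.

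**Figure D4:**
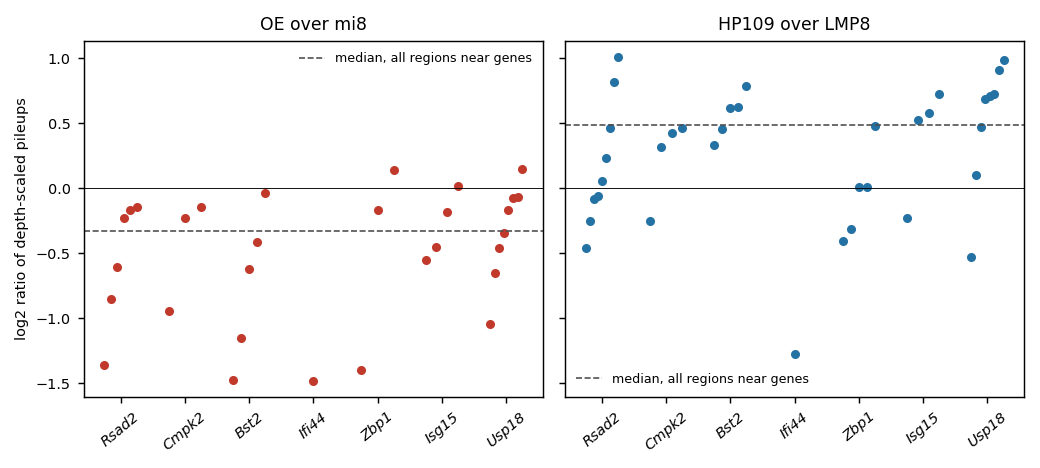
Log2 pileup ratio, scaled by the background step, of each region shared by OE and mi8 and by HP109 and LMP8, by gene (points; a region in both the Rsad2 and Cmpk2 windows is drawn under each), beside the median near all genes (dashed lines). The OE over mi8 ratios have a median of −0.43 and the HP109 over LMP8 ratios one of 0.44, and the Ifi44 point is at −1.48 in the first and −1.28 in the second.

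The control lists also differed from each other. Near the 7 genes, 3 of 48 LMP8 regions (6.25%) were absent from mi8, beside 6.17% near all genes, and 11 of 56 mi8 regions (19.6%) were absent from LMP8, beside 24.4%. The 3 LMP8 regions were at Isg15 and Usp18 and had a −log10 q of 1.59 to 3.52. None of the 11 mi8 regions reached a −log10 q of 20.

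The other interferon-stimulated genes were taken from a list of 70, of which 68 were found as protein-coding genes (Mx1 and Mx2 were not), with 649 regions outside the windows of the 7. OE lacked 252 of the 595 mi8 regions (42.4%, beside 39.3% near all genes), and mi8 lacked 14 of the 357 OE regions (3.92%, beside 4.56%). HP109 lacked 43 of the 467 LMP8 regions (9.21%, beside 7.64% near all genes), and LMP8 lacked 76 of the 500 HP109 regions (15.2%, beside 24.1%). Both controls alone held 26 regions (4.01%, beside 2.42% near all genes).

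**Figure D5:**
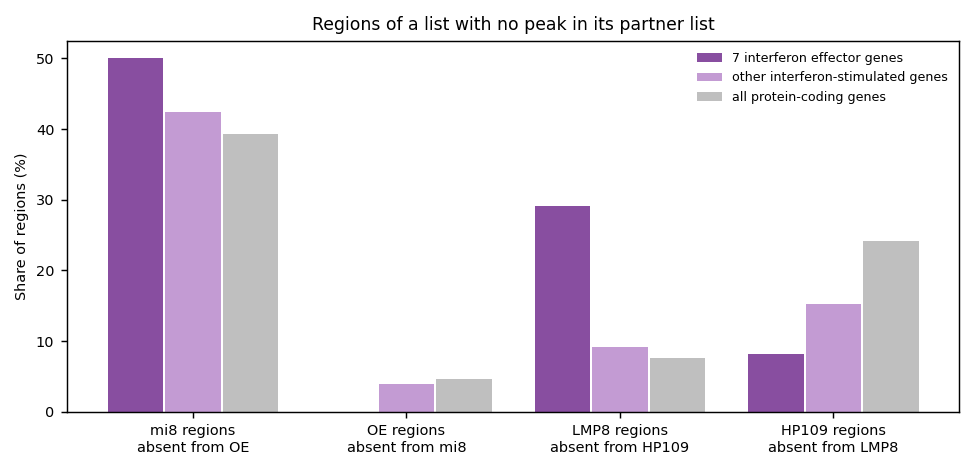
Share of control regions (percent, y axis) with no peak in the Pcgf6 vector's list, and of Pcgf6 vector regions absent from the control's list, near the 7 genes, near the other interferon-stimulated genes and near all protein-coding genes. The 7 genes stand at 28 of 56 mi8 regions absent from OE and 29.2% of LMP8 regions absent from HP109, and the other interferon-stimulated genes at 42.4% and 9.21%. All protein-coding genes stand at 39.3% and 7.64%.

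By gene, 21 of the 68 had a region in both controls alone, beside 18.5% of protein-coding genes with a region. The strongest in mi8 were at Ifi44l (33.3, the Ifi44 region 1.10 kb into that gene), Trim25, a ubiquitin ligase that acts on the RNA sensor RIG-I (15.6), Rtp4 (14.4) and Irf9, a DNA-binding factor of the interferon response (13.5). After them came 1 region shared by the RNA-binding genes Ifit2 and Ifit3 (13.4), 1 shared by the RNA sensors Oas1a and Oas1g (10.95), then Ifi209 (10.3), Ifi204 (8.41), the RNA-editing enzyme Adar (8.41) and the GTPase Irgm1 (7.76). The Ifit, Oas and Ifi200 genes have near-identical copies, and reads may be split between them, so their values are uncertain.

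A region in mi8 and not in OE was found at 63 of the 68 genes, beside 84.0% of protein-coding genes with a region. Such a region with a −log10 q of at least 10 was found at 40 of the 68, beside 43.6%. These counts by gene include regions that lie in the windows of the 7. The highest were at Ifi204 (51.1), Oasl1 (49.2), Ifit1bl1 (41.3), Oas1a (38.8), Ifi44l (33.3), the transcription factor Irf1 (27.5), Ly6e (27.2), the receptor kinase Jak1 (26.4), Samd9l (25.8), Oasl2 (24.6), Trim25 (22.0) and Uba7, the enzyme that activates Isg15 (20.2). None was found at Samhd1, Ifitm3, Gbp2, Gbp3 or Lgals9, and Samhd1, which degrades nucleotides, held 4 of the OE regions with no mi8 peak. A region in LMP8 and not in HP109 was found at 32 of the 68 genes, beside 34.6%. One with a −log10 q of at least 5 was found at 15 of the 68, beside 12.4%. The highest was at Irf9, followed by Ifi44l (11.4), the GTPase Ifi47 (11.4), Ifit2 and Ifit3 (10.6), Ifi209 (10.6), Ifi204 (9.25), Rtp4 (8.23), the DNA exonuclease Trex1 (7.87), Irgm1 (6.71), the exonuclease Isg20 (6.71), and Gbp7 (5.79). A region in HP109 and not in LMP8 was found at 39 of the 68 genes, beside 70.4%.

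At least 1 region of both controls alone lay near 5 of the 7 genes, all but Usp18 and Bst2, beside the same 18.5%, taken over 17929 genes. Ifi44 had 5, and at least 4 were found at 54 genes (0.301%). The other genes with the most such regions were Atp2b1 (11 of 135 regions, chr10:98914630-99026143), Ifi207 (9 of 25, chr1:173723424-173741831), Osbpl8 (9 of 142, chr10:111164742-111297249), Fndc3a (8 of 67, chr14:72537948-72710701) and Lpp (8 of 153, chr16:24393350-24992578). A ranking by count favours long genes with many regions, and 5 of 8 regions were of this kind at Ifi44. Among these other genes, Ifi207 had the highest −log10 q of such regions in mi8 (15.5) and also in LMP8 (9.25). Each value is the highest of its own list, and they may belong to different regions. Ifi207 is one of the Ifi200 genes, so its values carry the same uncertainty from near-identical copies.

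Just inside the window's edge, at 9.27 kb, Rsad2 had the region of both controls alone at chr12:26465721-26465905, and just outside, at 10.3 kb, one of mi8 (10.5) and HP109 (3.38). Zbp1 had a region of all lists 9.79 kb from its span, at 16.1 in OE against 19.9 in mi8 and 6.64 in HP109 against 6.29 in LMP8. The first beyond its edge, at 10.65 kb, had 31.6 in OE against 20.1 in mi8 and 34.8 in HP109 against 17.7 in LMP8.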

How the data were processed

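The deposited data were 4 narrowPeak lists on mm10, 1 for each vector with 2 libraries, beside 1 input library. Reads were aligned with BWA and handled with Picard, and peaks called with MACS2, per the submitters' processing notes. The tools' versions and thresholds, and how libraries were pooled or thinned, were not given in the sources used here. No source states whether the 2 libraries of a vector came from separate cultures. The score deposited by the authors is a whole number derived from −log10 q. The deposited fold is a ratio, summit pileup over local input background. The −log10 p and −log10 q columns were deposited by the authors, and summit offsets with them. Fold and −log10 q describe peaks within a list.

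Overlap of peaks (1 bp or more) was found with Python 3.11.15, numpy 2.4.6, pandas 2.3.3 and scipy 1.17.1, and figures drawn with matplotlib 3.10.9. Overlapping peaks of the 4 lists were joined into regions, a region with several peaks of 1 list taking the strongest. Pileup and background were solved from the fold, taken as pileup + 1 over background + 1, and from −log10 p, a Poisson probability. Whole numbers fitted within 0.001 for 100% of peaks in each list, and the steps were tested on simulated data. Exact Poisson 95% intervals cover counting error only, and reads without molecular identifiers are not independent molecules. With 1 list per vector there is no spread between samples, and no test was run. Depth is known only as the ratio of background steps.

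Gene spans came from the RefSeq table (GRCm38.p6), which has no exons, so exonic and intronic positions are not given. A further promoter pattern of the plan is not reported here. Start and strand came from the promoter table for 5 of the 7 genes. For Usp18 and Zbp1 the span end in the strongest region served instead. The 7 genes and the lists of interferon genes and markers were chosen with earlier results of these data known. Named are the 7 genes; interferon-stimulated genes with a region in both controls alone, in mi8 (−log10 q of at least 10) and not OE, or in LMP8 (at least 5) and not HP109, at most 12 per state; and the 5 other genes with the most regions in both controls alone. Alternatives were the distance from the span, the overlap, thresholds on −log10 q and equal numbers of peaks. Leaving out Ifi44 or regions in another gene's span, and other scalings of the pileup, were added after seeing the data.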

Additional observations from a re-analysis of the deposited data

Results flagged for a closer look

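The region 2.41 kb before the Cmpk2 start (chr12:26466720-26466897) went opposite ways in the 2 pairs: it was absent from OE and had a −log10 q of 10.5 in mi8, and it had a −log10 q of 3.38 in HP109 and was absent from LMP8. It was the only region of the 60 (1.67%) held by mi8 and HP109 alone, a state of 7.79% of regions near all genes. Near all genes, OE lacked 38.1% of mi8 regions in the strength range 10 to 20. LMP8 lacked 70.7% of HP109 regions weaker than 5. The HP109 peak had a pileup of 9, and the lowest called in LMP8 on a like background was 6. The difference was not tested.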

How the results depend on the processing

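No paired analysis was possible because each vector's 2 libraries enter 1 list, and for the same reason no library could be left out. Of 98 alternative values, 61 stayed within 1.5 times the value reported and 37 moved past it. A count cannot change sign, so no value was checked for a reversal. Regions in OE and not mi8 stayed at 0 in every setting run. At a −log10 q of at least 10 in every list, regions in LMP8 and not HP109 numbered 4, against 14. Those in HP109 and not LMP8 also numbered 4, against 3. Why the counts moved was not tested beyond the construction of each setting, which keeps fewer or more peaks. Among these settings a share near all genes is given only for equal numbers of peaks. The other counts have no background beside them. Regions in both controls alone (11) numbered 6 within 2 kb, 7 at a −log10 q of at least 5 and 4 at 10 in every list, 7 with equal numbers of peaks, 6 at 10 in at least 1 control with no peak of any strength in OE or HP109, and 6 without Ifi44. At Ifi44 itself they (5) numbered 3 at 5 and 2 at 10 in every list, and 3 with equal numbers. Regions in mi8 and not OE (28) numbered 17 within 2 kb, 16 with equal numbers and 15 at 10 with no peak of any strength in OE. Regions in LMP8 and not HP109 (14) numbered 9 within 2 kb, 9 at 5 and 4 at 10 in every list, 2 at 10 with no peak of any strength in HP109 and 9 without Ifi44. Regions in HP109 and not LMP8 (3) numbered 0 within 2 kb, 6 within 25 kb, 1 with equal numbers and 0 at 10 with no peak of any strength in LMP8. Regions in mi8 and not LMP8 (11) numbered 6 within 2 kb, 17 at 10 in every list, 7 with equal numbers and 4 at 10 with no peak of any strength in LMP8. Regions in LMP8 and not mi8 (3) numbered 5 within 25 kb, 5 at 50% overlap, and 0 at 5 or 10 in every list, with equal numbers, and at 10 with no peak of any strength in mi8. For the other interferon-stimulated genes, regions in mi8 and not OE (252) numbered 163 at 10 in every list, 87 with equal numbers and 74 at 10 with no peak of any strength in OE, and those in LMP8 and not HP109 (43) numbered 72 within 25 kb, 17 at 10 in every list and 4 at 10 with no peak of any strength in HP109. The depth of a list limits weak peaks: a pileup under 8 in OE, or under 6 in HP109 and LMP8, was not called at the lowest background.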
